A study of Mus musculus with 8 samples.

Results

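The genes described here encode the nuclear subunits of respiratory complexes II, III, IV and V, cytochrome c, and the proteins that assemble these complexes. They were taken by gene symbol from the deposited table: the succinate dehydrogenase genes and their assembly factors, the ubiquinol-cytochrome c reductase genes and their assembly factors, cytochromes c1 and c, the cytochrome c oxidase genes with a symbol from Cox4 to Cox8 or from Cox10 to Cox20, and the ATP synthase genes with their assembly factors, leaving out 8 pseudogenes. This gave 70 identifiers with 69 symbols among 55385 genes in the table. Of these, 65 had enough counts to be tested, among 15314 tested genes. RNA-seq was made of left ventricle, with 4 Mst1-TG and 4 WT samples, all from male mice of the C57BL6 strain. Mst1-TG mice carry a transgene for Mst1, a Hippo pathway kinase whose mouse gene is Stk4, and WT mice are littermates without it. The alpha-myosin heavy chain promoter drives the transgene, so that it is made in cardiomyocytes only, and these mice are used as a model of dilated cardiomyopathy. The design text gives an age of 3 weeks and the extraction protocol 3 months. Nothing in the labels ties each sample to its own animal, and the spread behind the p-values may therefore be technical.

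Complex II, succinate dehydrogenase, passes electrons from succinate to ubiquinone and is also an enzyme of the citric acid cycle. Complex III carries electrons from ubiquinol to cytochrome c, and complex IV, cytochrome c oxidase, hands them to oxygen. Complexes III and IV pump protons, and complex V, the ATP synthase, uses the proton gradient to make ATP. The heart depends on this chain for nearly all of its ATP. Several subunits of complex IV exist as isoforms made by different genes, some of them used mainly in heart and skeletal muscle. Assembly factors insert haem, copper, iron-sulfur centres and flavin, or hold subunits until they join, and are not part of the finished enzyme.

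The libraries held 21193536 (WT 4) to 23809256 (WT 1) estimated counts. Stk4, which the transgene supplies, averaged 1608 ± 130.3 CPM (counts scaled to a common library size) in Mst1-TG and 27.23 ± 1.88 CPM in WT (SD, n = 4 each), and the 2 groups lay apart on the first principal component, which took 72.2% of the variance. Transcripts of the mitochondrial genome made up 12.85% to 14.36% of counts in Mst1-TG libraries and 21.35% to 23.8% in WT libraries. CPM values here are scaled by TMM factors (a trimmed mean of the ratios between libraries), which were 1.082 to 1.133 in Mst1-TG and 0.8906 to 0.9374 in WT. Scaling by library totals alone moved the median log2 fold change of all genes by 0.29 toward Mst1-TG, and the members whose call it changes are named below. A gene is said to have risen or fallen where the adjusted p of edgeR's quasi-likelihood test, over all genes tested, was below 0.05. Log2 fold changes are Mst1-TG over WT with their standard error (SE).

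Of the 65 tested members, 60 fell in Mst1-TG, 1 rose and 4 did not pass the test. Among all genes tested, 21.1% fell and 21.2% rose. The members' median log2 fold change was -0.92, against 0.01 over all genes. In 24 members the fall was at least 2-fold, against 4.6% of all genes. The CPM of the 4 Mst1-TG libraries and the 4 WT libraries did not overlap for 61 members, against 40.3% of all genes. By library totals the members' median was -0.63, with 49 lower and 2 higher. Of 46 tested subunits 43 fell, with a median of -0.97, and of 18 assembly factors 16 fell, with a median of -0.49. By library totals 39 subunits were called lower with a median of -0.68, and 9 assembly factors lower and 2 higher with a median of -0.20. The difference between the medians of subunits and assembly factors was not tested. In bulk ventricle a smaller share of the cells that make these transcripts and less transcript per cell cannot be told apart.

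**Figure D1:**
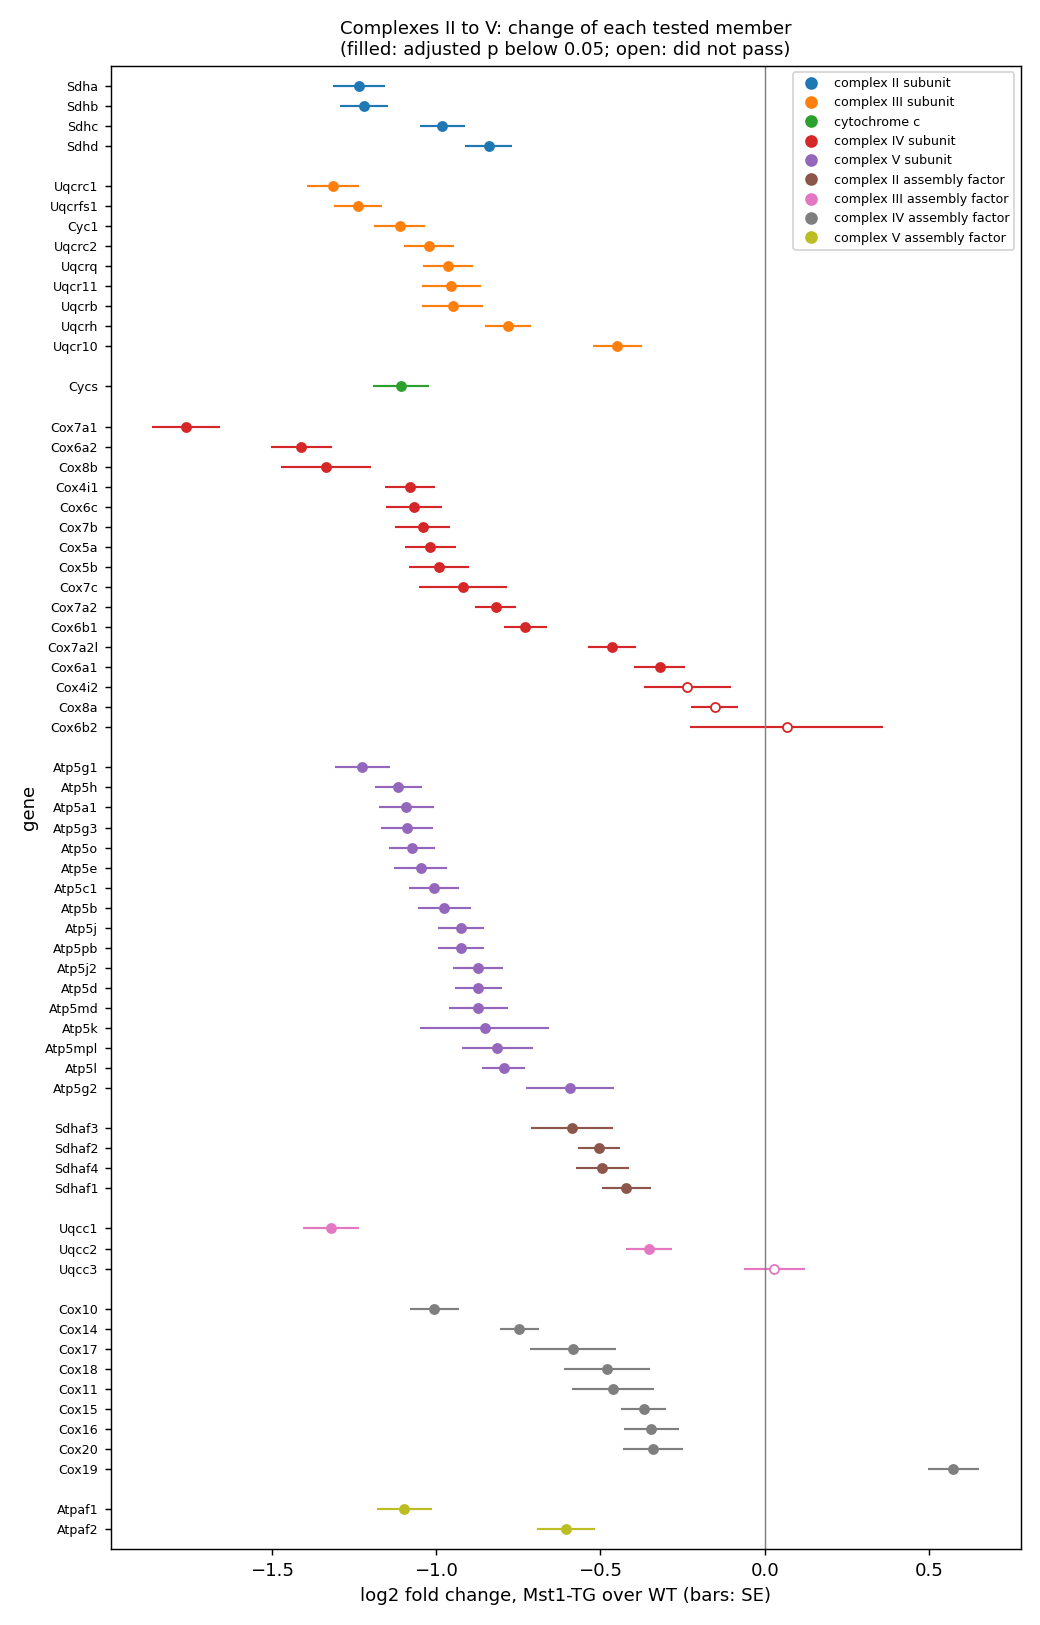
Log2 fold change (Mst1-TG over WT, horizontal axis) of each of the 65 tested genes, grouped by complex and role, with bars for the SE; filled points passed the test and open points did not. Most subunits lie near -1, with Cox7a1 lowest at -1.76 and Cox6b2, Cox8a, Cox4i2, Cox6a1, Cox7a2l and Uqcr10 closer to 0. Most assembly factors lie closer to 0 than the median of the subunits. Among the genes that passed, Cox19 alone lies above 0.

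All 4 subunits of complex II fell, with a median log2 fold change of -1.10. Sdha, the flavoprotein that oxidises succinate, had 558, 587, 482 and 554 CPM in Mst1-TG libraries, against 1315, 1329, 1248 and 1239 CPM in WT libraries. The groups were far apart, and the level in Mst1-TG was 42.5% of that in WT (log2 fold change -1.23 ± 0.08, edgeR adjusted p = 7.9e-08). Sdhb, the iron-sulfur subunit, had 274, 264.5, 240.5 and 295 CPM in Mst1-TG libraries, against 628, 622, 612 and 639 CPM in WT libraries (log2 fold change -1.22 ± 0.07, edgeR adjusted p = 5.8e-08). The other 2 subunits anchor the enzyme in the membrane and bind ubiquinone. Sdhc had 223, 210.1, 194 and 223 CPM in Mst1-TG libraries, against 399.7, 440.3, 425 and 414 CPM in WT libraries (log2 fold change -0.98 ± 0.07, edgeR adjusted p = 1.8e-07). Sdhd had 239, 234, 211 and 256 CPM in Mst1-TG libraries, against 407, 431, 433 and 411 CPM in WT libraries (log2 fold change -0.84 ± 0.07, edgeR adjusted p = 8.3e-07). In none of the 4 genes did a Mst1-TG library reach the lowest WT library.

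All 9 nuclear subunits of complex III fell, from -1.31 to -0.45 with a median of -0.96. The falls were largest for Uqcrc1, a core protein, and Uqcrfs1, the Rieske iron-sulfur protein that takes electrons from ubiquinol. Uqcrc1 had 540.5, 526, 448 and 553 CPM in Mst1-TG libraries, against 1318, 1293, 1240 and 1287 CPM in WT libraries (log2 fold change -1.31 ± 0.08, edgeR adjusted p = 6.1e-08). Uqcrfs1 had 347, 318, 297 and 346.5 CPM in Mst1-TG libraries, against 768, 789.5, 759.7 and 769.5 CPM in WT libraries (log2 fold change -1.24 ± 0.07, edgeR adjusted p = 4.7e-08). Cytochrome c1, encoded by Cyc1, followed at -1.11 ± 0.08, and the second core protein gene, Uqcrc2, at -1.02 ± 0.08. The small accessory subunits Uqcrq, Uqcr11 and Uqcrb lay between -0.96 and -0.95. The smallest falls were those of Uqcrh, the acidic hinge protein that helps cytochrome c dock, and Uqcr10, another small accessory subunit. Uqcrh had 253, 263, 266 and 297 CPM in Mst1-TG libraries, against 477, 471, 455 and 450.1 CPM in WT libraries (log2 fold change -0.78 ± 0.07, edgeR adjusted p = 1.2e-06). Uqcr10 had 197, 205, 202 and 228 CPM in Mst1-TG libraries, against 304, 297, 278 and 256 CPM in WT libraries, with less distance between the groups than any other complex III subunit (log2 fold change -0.45 ± 0.07, edgeR adjusted p = 0.0003), and by library totals it did not pass (log2 fold change -0.16, adjusted p = 0.059). Cycs, the mobile carrier between complexes III and IV and also a trigger of apoptosis when released to the cytosol, had 222, 189, 172 and 209 CPM in Mst1-TG libraries, against 391, 446, 429 and 441 CPM in WT libraries (log2 fold change -1.11 ± 0.09, edgeR adjusted p = 3.4e-07).

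Complex IV showed the widest spread among its subunits. Of 16 tested genes 13 fell and 3 did not pass, with log2 fold changes from -1.76 to 0.07. The 4 subunits with a single form, Cox5a, Cox5b, Cox6c and Cox7c, all fell, by a median of 1.00 on the log2 scale. Cox7c was the least even of these, with 227, 264, 277 and 327 CPM in Mst1-TG libraries, against 592, 591, 473 and 414 CPM in WT libraries, so that WT 3 and WT 4 lay well below WT 1 and WT 2 (log2 fold change -0.92 ± 0.13, edgeR adjusted p = 0.00019). The 12 tested genes that belong to isoform families ranged over the whole spread, with 9 lower and 3 not passed.

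Among the isoforms, the genes used mainly in heart and skeletal muscle, Cox7a1, Cox6a2 and Cox8b, had the 3 lowest log2 fold changes of complex IV. Cox7a1, on chromosome 7 from 30184144 to 30186078 (GRCm38, plus strand), had 101.5, 108, 105.5 and 131 CPM in Mst1-TG libraries, against 401, 429, 355 and 326 CPM in WT libraries. Each WT library was above every Mst1-TG library by a wide margin, and the level in Mst1-TG was 29.5% of that in WT (log2 fold change -1.76 ± 0.10, edgeR adjusted p = 5.1e-08). Cox6a2, on chromosome 7 from 128205435 to 128206387 (minus strand), had 390.4, 481.5, 384 and 459 CPM in Mst1-TG libraries, against 1219, 1186, 1113 and 1040 CPM in WT libraries (log2 fold change -1.41 ± 0.09, edgeR adjusted p = 9.7e-08). Cox8b, on chromosome 7 from 140898945 to 140900446 (minus strand), had 107, 154, 135 and 157 CPM in Mst1-TG libraries, against 398, 382, 332 and 284 CPM in WT libraries, with WT 4 the lowest of its group and Mst1-TG 1 the lowest of the other (log2 fold change -1.34 ± 0.14, edgeR adjusted p = 1.5e-05).

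**Figure D2:**
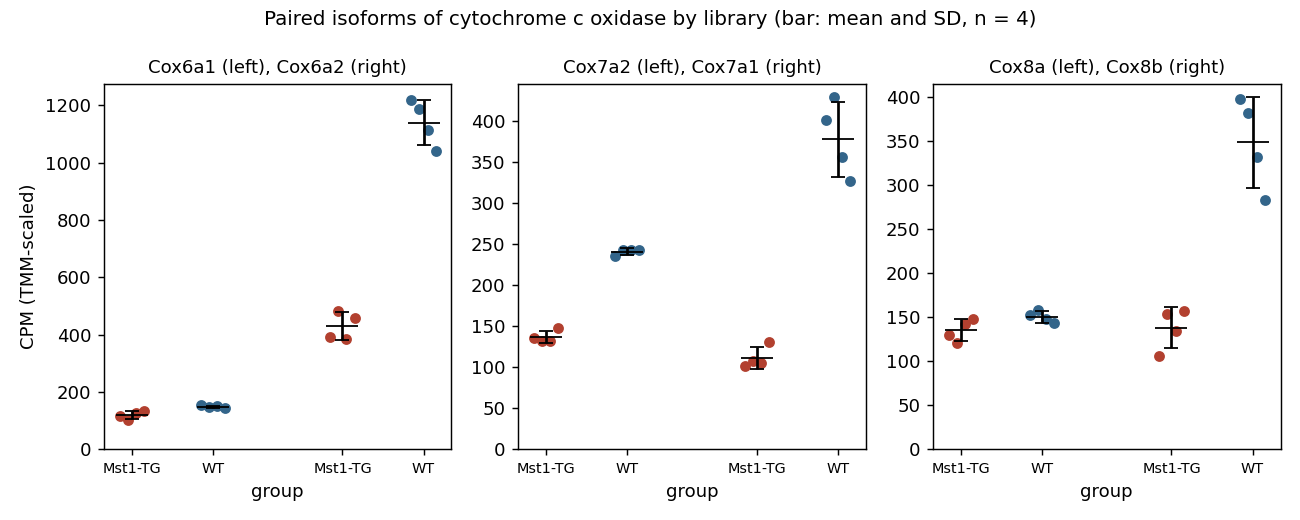
CPM (vertical axis, from 0) of 3 isoform families of complex IV in each library, with points for libraries and bars for the mean and SD of 4 libraries. In each panel the widely expressed isoform stands left and the muscle isoform right. Cox6a2, Cox7a1 and Cox8b are high in WT and much lower in Mst1-TG. Cox7a2 is also lower in Mst1-TG without overlap, by a smaller fold than Cox7a1. Cox6a1 is slightly lower without overlap, and for Cox8a the groups overlap.

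The widely expressed partners of these 3 genes had log2 fold changes closer to 0. Cox6a1 had 116, 103, 126 and 134 CPM in Mst1-TG libraries, against 154, 148, 150.0 and 145 CPM in WT libraries, without overlap, and fell by a small amount (log2 fold change -0.32 ± 0.08, edgeR adjusted p = 0.0048); by library totals the log2 fold change was -0.03 with an adjusted p of 0.75. Cox7a2 had 135, 132, 131.5 and 147.5 CPM in Mst1-TG libraries, against 235, 243, 243 and 242 CPM in WT libraries (log2 fold change -0.82 ± 0.06, edgeR adjusted p = 2.9e-07). Cox7a2l, a relative of Cox7a2 known for linking complexes III and IV into supercomplexes and shortened in C57BL/6 strains, had 159, 156, 166 and 179 CPM in Mst1-TG libraries, against 223, 208, 231 and 249 CPM in WT libraries (log2 fold change -0.46 ± 0.07, edgeR adjusted p = 0.00019), and did not pass by library totals (-0.18, adjusted p = 0.071). For Cox8a the groups overlapped, at 130.5, 121, 142 and 148.5 CPM in Mst1-TG libraries, against 153, 159, 148 and 143 CPM in WT libraries, and the gene did not pass (log2 fold change -0.15 ± 0.07, edgeR adjusted p = 0.11); its sign turned to 0.13 by library totals.

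The remaining families paired a major and a minor isoform. Cox4i1, the main form of the regulatory subunit at which ATP acts on the enzyme, had 743, 797, 749.5 and 851 CPM in Mst1-TG libraries, against 1771, 1589, 1645 and 1634 CPM in WT libraries (log2 fold change -1.08 ± 0.08, edgeR adjusted p = 1.6e-07). Cox4i2, a form known from lung and from low oxygen, had 9.81, 8.12, 10.4 and 12.3 CPM in Mst1-TG libraries, against 11.4, 10.5, 12.0 and 14.0 CPM in WT libraries, with overlapping groups; it did not pass (log2 fold change -0.23 ± 0.13, edgeR adjusted p = 0.18), and its sign turned to 0.05 by library totals. Per kilobase of transcript, Cox4i2 averaged 13.9 CPM in Mst1-TG and 16.4 CPM in WT, while Cox4i1 averaged 1040 CPM in Mst1-TG and 2198 CPM in WT. The Cox6b subunit sits on the outer face of the enzyme, between its paired monomers. Cox6b1 had 282, 297, 283 and 314 CPM in Mst1-TG libraries, against 501, 499.5, 477 and 471 CPM in WT libraries (log2 fold change -0.73 ± 0.07, edgeR adjusted p = 1.4e-06). Its testis form Cox6b2 had 1.05, 1.94, 0.856 and 1.00 CPM in Mst1-TG libraries, against 1.18, 1.24, 1.05 and 1.16 CPM in WT libraries and did not pass (log2 fold change 0.07 ± 0.29, edgeR adjusted p = 0.88); Mst1-TG 2 alone stood above the others, and without it the log2 fold change was -0.25. Cox7b had 206, 223, 208 and 237 CPM in Mst1-TG libraries, against 474, 497, 433 and 394 CPM in WT libraries (log2 fold change -1.04 ± 0.08, edgeR adjusted p = 5.2e-07), and its partner Cox7b2, known from testis, had 1 count in all libraries together.

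Each pair of isoforms was then compared within each library as the log2 ratio of their counts, in which the scaling of the library cancels. An effect of transcript length that differs between libraries would not cancel, and its part in the ratios was not tested. The form written first is the widely expressed or the minor one of its pair, except for Atp5g3, a choice made with earlier results of these data known. Written in this order, the ratio was higher in Mst1-TG in 8 of 8 pairs, with the 4 Mst1-TG ratios above all 4 WT ratios. The shared direction depends on that order, since a pair turned round would be lower. The pairs are not separate results, as Cox7a1 and Atp5g1 are each shared between pairs. How often other gene pairs lie apart was not counted. Of all genes tested singly, 40.3% showed no overlap between the groups. For 4 against 4 libraries the smallest two-sided p that the exact permutation test can give is 0.0286, and all 8 pairs reached it. Benjamini-Hochberg adjustment over the 8 pairs could not change this, because all 8 p-values were equal. The log2 ratio of Cox6a1 to Cox6a2 was -1.75, -2.23, -1.61 and -1.78 in Mst1-TG, against -2.98, -3.01, -2.89 and -2.84 in WT. The difference of 1.09 corresponds to a 2.13-fold larger ratio. For Cox7a2 to Cox7a1 the log2 ratio was 0.41, 0.29, 0.32 and 0.18 in Mst1-TG, against -0.77, -0.82, -0.55 and -0.43 in WT, a 1.92-fold larger ratio. All 4 Mst1-TG values of this pair were above 0 and all 4 WT values below it. For Cox8a to Cox8b it was 0.29, -0.35, 0.07 and -0.08 in Mst1-TG, against -1.38, -1.27, -1.17 and -0.99 in WT, a 2.27-fold larger ratio. The largest gap between group means was that of Cox7a2l to Cox7a1, at 0.57 ± 0.10 in Mst1-TG and -0.73 ± 0.28 in WT (SD, n = 4 each), 2.46-fold. Cox4i2 to Cox4i1 averaged -6.28 ± 0.23 in Mst1-TG and -7.12 ± 0.19 in WT, 1.79-fold, and Cox6b2 to Cox6b1 averaged -7.97 ± 0.50 in Mst1-TG and -8.69 ± 0.08 in WT, 1.65-fold. In both pairs the first gene did not pass the test by itself.

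**Figure D3:**
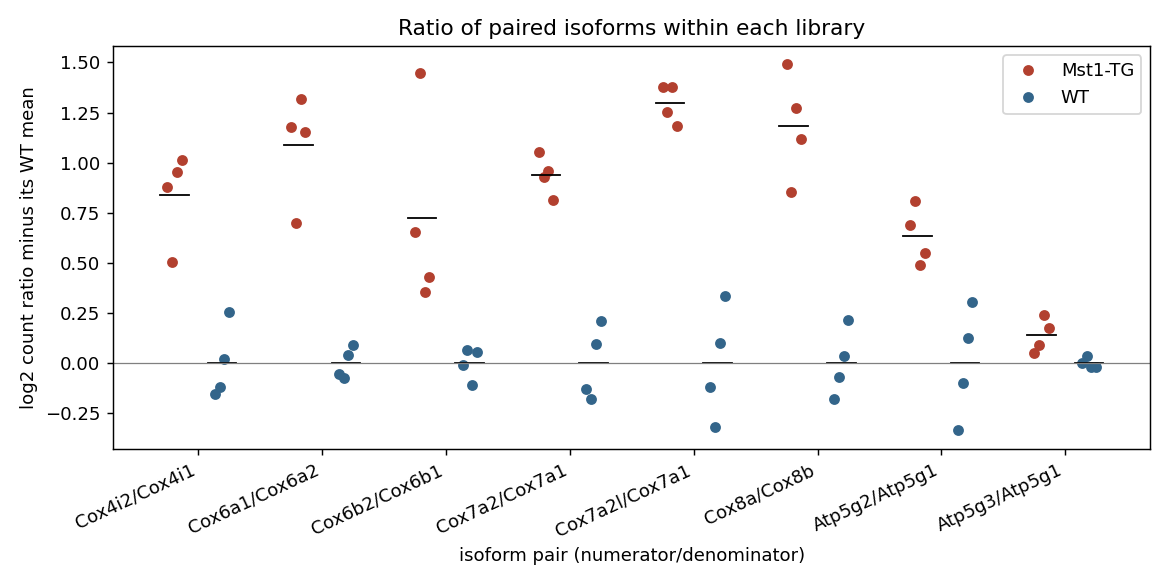
Log2 count ratio of 8 isoform pairs in each library, less the mean WT ratio of that pair (vertical axis), with a line for each group mean of 4 libraries. Mst1-TG points lie above the WT points in every pair, and the means differ by 0.14 for Atp5g3/Atp5g1 and by 1.30 for Cox7a2l/Cox7a1.

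Levels per kilobase of transcript allow genes to be set beside each other. Cox7a1 averaged 254 CPM per kilobase in Mst1-TG and 860 in WT, and Cox7a2 averaged 207 in Mst1-TG and 366 in WT. By this measure Cox7a2 made up 45.0% ± 1.7 of the pair in Mst1-TG and 30.0% ± 2.7 in WT (SD, n = 4 each), and Cox7a1 remained the larger part in both groups. Cox6a1 made up 25.1% ± 3.3 of its pair in Mst1-TG and 13.5% ± 0.6 in WT. Cox8a made up 39.4% ± 4.4 of its pair in Mst1-TG and 22.2% ± 2.0 in WT. By this measure the muscle form held the larger share of all 3 pairs in each of the 8 libraries. In counts not divided by length, Cox7a2 was above Cox7a1 in all 4 Mst1-TG libraries. Cox8a was above Cox8b in Mst1-TG 1 and Mst1-TG 3. Which form is larger in Mst1-TG therefore depends, for these 2 pairs, on the annotated lengths. Summed over its pair, Cox6a stood at 839.8 ± 68.8 CPM per kilobase in Mst1-TG and 1937 ± 123 in WT, Cox7a at 461 ± 40.6 in Mst1-TG and 1226 ± 103 in WT, and Cox8 at 631 ± 72.2 in Mst1-TG and 1244 ± 155 in WT.

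Complex V fell as a whole: all 17 of its nuclear subunits were lower, with log2 fold changes from -1.22 to -0.59 and a median of -0.92. Atp5b, the beta subunit of the catalytic head in which ATP is made, had 2675, 2863, 2388 and 2707 CPM in Mst1-TG libraries, against 5445, 5174, 5197 and 5076 CPM in WT libraries (log2 fold change -0.97 ± 0.08, edgeR adjusted p = 5.7e-07). Atp5a1, the alpha subunit, fell by a similar amount, to a mean of 2016 ± 177 CPM in Mst1-TG against 4291 ± 172 CPM in WT. With the gamma, delta and epsilon subunits (Atp5c1, Atp5d and Atp5e) the 5 head genes had a median of -1.01. The 4 stalk genes, whose products hold the head still while the rotor turns, all fell, with log2 fold changes from -1.11 to -0.92. Their largest fall was that of Atp5h, with 315, 320.3, 298 and 344 CPM in Mst1-TG libraries, against 731.5, 699, 683 and 652 CPM in WT libraries (log2 fold change -1.11 ± 0.07, edgeR adjusted p = 8.4e-08). The 5 small membrane subunits had a median of -0.85 and ranged only from -0.87 to -0.79. Atp5l, which takes part in the pairing of ATP synthases, had 195, 187, 183 and 209 CPM in Mst1-TG libraries, against 328, 344, 325 and 344 CPM in WT libraries (log2 fold change -0.79 ± 0.07, edgeR adjusted p = 6e-07). Atp5k, another subunit of that membrane part and the shortest transcript of the class, had 70.8, 89.2, 84.7 and 104 CPM in Mst1-TG libraries, against 194.5, 189, 139 and 107 CPM in WT libraries, with WT 4 close to the Mst1-TG libraries and the widest error of the class (log2 fold change -0.85 ± 0.20, edgeR adjusted p = 0.0076).

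The rotor of the ATP synthase is a ring of c subunits, and 3 genes encode the same mature c protein behind different import sequences. Atp5g1 had 517, 512.5, 426 and 539 CPM in Mst1-TG libraries, against 1225, 1172, 1132 and 1129 CPM in WT libraries (log2 fold change -1.22 ± 0.08, edgeR adjusted p = 1.3e-07). Atp5g3 had 624, 636, 586 and 709 CPM in Mst1-TG libraries, against 1426, 1402, 1305 and 1300 CPM in WT libraries (log2 fold change -1.09 ± 0.08, edgeR adjusted p = 2.1e-07). Atp5g2 had 16.7, 18.05, 12.0 and 15.85 CPM in Mst1-TG libraries, against 19.5, 22.0, 24.8 and 28.0 CPM in WT libraries and fell least of all complex V subunits (log2 fold change -0.59 ± 0.14, edgeR adjusted p = 0.0036); by library totals it did not pass (-0.31, adjusted p = 0.069). The log2 ratio of Atp5g2 to Atp5g1 averaged -5.00 ± 0.14 in Mst1-TG and -5.64 ± 0.28 in WT, and that of Atp5g3 to Atp5g1 averaged 0.36 ± 0.08 in Mst1-TG and 0.22 ± 0.03 in WT (SD, n = 4 each). The second of these ratios was only 1.10-fold larger in Mst1-TG. How reads shared by these near-identical coding stretches were divided is not given in the sources used here, so the split among the 3 genes is uncertain.

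Assembly factors of complexes II, III and IV had medians of -0.50, -0.35 and -0.46, closer to 0 than those of the subunits, and by library totals -0.22, -0.07 and -0.18. The 4 factors of complex II all fell, by a narrow range from -0.59 to -0.42: Sdhaf2 and Sdhaf4, which serve the flavin-bearing Sdha, had -0.50 ± 0.07 and -0.49 ± 0.08, and Sdhaf1 and Sdhaf3, which serve the iron-sulfur centres of Sdhb, had -0.42 ± 0.07 and -0.59 ± 0.13. All 4 had separate groups. Sdhaf1 did not pass by library totals.

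The 3 complex III factors had log2 fold changes from -1.32 to 0.03. Uqcc1, which with Uqcc2 guides the making and stability of cytochrome b, had 54.7, 47.3, 47.2 and 56.3 CPM in Mst1-TG libraries, against 114, 145.5, 127 and 127 CPM in WT libraries, the largest fall of any assembly factor (log2 fold change -1.32 ± 0.09, edgeR adjusted p = 9.4e-08). Uqcc2 had 62.1, 56.2, 62.1 and 69.2 CPM in Mst1-TG libraries, against 82.9, 80.8, 75.0 and 79.9 CPM in WT libraries, a much smaller fall (log2 fold change -0.35 ± 0.07, edgeR adjusted p = 0.0012), which did not pass by library totals (-0.07). Uqcc3, which acts at the next step of complex III assembly, had 25.5, 30.1, 33.15 and 34.9 CPM in Mst1-TG libraries, against 32.3, 29.7, 28.4 and 30.7 CPM in WT libraries, with overlapping groups, and did not pass (log2 fold change 0.03 ± 0.09, edgeR adjusted p = 0.83); by library totals it counted as higher (0.31, adjusted p = 0.013).

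Of the 9 complex IV factors 8 fell and 1 rose. Cox10, the enzyme of the first step from haem b to haem a, had 36.85, 36.5, 32.2 and 35.4 CPM in Mst1-TG libraries, against 71.6, 77.2, 71.4 and 62.8 CPM in WT libraries (log2 fold change -1.01 ± 0.07, edgeR adjusted p = 2.6e-07). Cox15, the enzyme of the following step, fell by a smaller amount, at -0.37 ± 0.07. Cox14, which acts with the nascent Cox1 protein, had -0.75 ± 0.06, while Cox16, Cox18 and Cox20, which serve the Cox2 protein, had -0.35, -0.48 and -0.34. The copper group did not move together. Cox17, the copper chaperone of the intermembrane space, had 40.25, 52.3, 50.4 and 55.3 CPM in Mst1-TG libraries, against 85.5, 82.75, 71.2 and 57.55 CPM in WT libraries (log2 fold change -0.58 ± 0.13, edgeR adjusted p = 0.0041), and Cox11, which delivers copper to the Cox1 protein, had -0.46 ± 0.13. Cox19, a small cysteine-rich protein of the intermembrane space that takes part in copper handling, is on chromosome 5 from 139336189 to 139351418 (minus strand). It was the only member that rose, with 57.4, 48.9, 52.1 and 58.1 CPM in Mst1-TG libraries, against 32.5, 38.35, 35.8 and 38.75 CPM in WT libraries. Every Mst1-TG library was above every WT library, and the Mst1-TG mean was 149% of the WT mean (log2 fold change 0.57 ± 0.08, edgeR adjusted p = 5.7e-05). It was called higher in all 17 fits, at 0.52 to 0.86. Cox11, Cox15, Cox16, Cox18 and Cox20 did not pass by library totals, which left 3 complex IV factors lower and 1 higher.

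**Figure D4:**
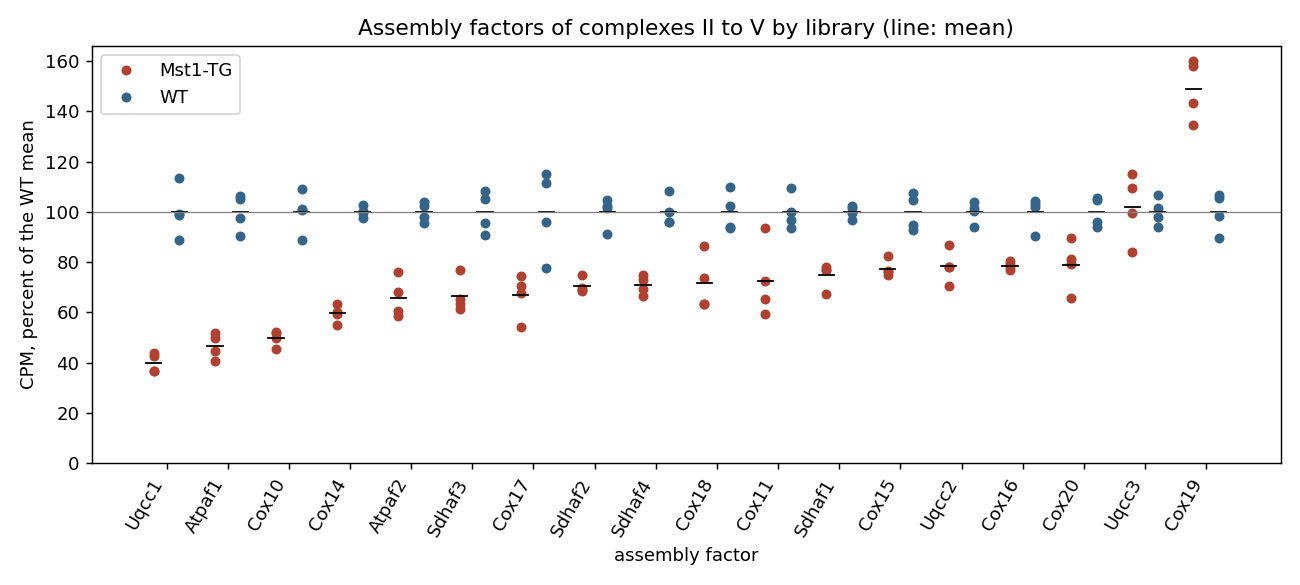
CPM of the 18 assembly factors in each library as a percentage of the WT mean of the gene (vertical axis), with a line for each group mean of 4 libraries, ordered by the mean in Mst1-TG. Uqcc1, Atpaf1 and Cox10 are lowest in Mst1-TG, most others lie between 60 and 80%, Uqcc3 overlaps the WT libraries and Cox19 lies above them.

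Both complex V factors fell. Atpaf1, the chaperone of the beta subunit, had 31.2, 36.05, 28.2 and 34.75 CPM in Mst1-TG libraries, against 73.3, 74.1, 63.0 and 68.0 CPM in WT libraries, a change close to that of the subunits (log2 fold change -1.10 ± 0.08, edgeR adjusted p = 3.6e-07). Atpaf2, the chaperone of the alpha subunit, had 19.1, 16.45, 17.0 and 21.4 CPM in Mst1-TG libraries, against 28.8, 27.6, 26.9 and 29.3 CPM in WT libraries, a smaller change (log2 fold change -0.61 ± 0.09, edgeR adjusted p = 9.8e-05). The groups did not overlap in either.

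The other 4 symbols were not tested, because the table holds hardly any counts for them. Cox8c, known from testis, had 0 counts in all 8 libraries, which allows up to 3 counts or 0.0169 CPM over the libraries together. Cox6c2 had 2 counts and Cox20b had 1 count over all libraries. A second identifier with the symbol Atp5o had 4 counts in all, against 112449 counts for the tested one.

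Promoters of members were read from RefSeq (GRCm38.p6), which gave a window from 250 bases before to 50 bases after the start for 52 of the 65 tested genes, and for 27025 genes in all. In these windows 4 motifs were searched on both strands. The NRF1 motif GCGCANGCG, bound by the factor NRF1, was found in 16 of the 52 windows, or 30.8%, against 7.03% of all windows. The holders include Sdha, Sdhd, Uqcrc1, Cycs, Cox6a1, Atp5c1 and Atp5o. The ETS motif CCGGAAGT, which GABP binds, was found in 15.4% of members' windows, against 4.31% of all, and the YY1 motif AAGATGGCG in 7.69% against 1.64%. The motif TCAAGGTCA of the oestrogen-related receptors (ERR) was found in 2 members, Atp5g3 and Sdhd, or 3.85% against 0.466%. Members' windows were also richer in G and C, with a median of 58.8% and 20.5 CG dinucleotides, against 53.3% and 8 over all windows, and no allowance was made for this. All 52 members' windows are of tested genes, while the windows of all genes include genes that were not tested. No allowance was made for this either, so the shares compare unlike sets. A match says only that the letters are there.

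The stretches of 250 bases before the start are shown for the muscle and the widely expressed forms of Cox7a and Cox8, for Cox6a1 with its NRF1 matches and for Atp5g3 with its ERR match. Cox6a2, the muscle partner of Cox6a1, had no window, so that pair could not be compared. Starts are those of RefSeq, which for some genes differ from the GENCODE positions given above. Motif matches are in capitals. Cox6a1 has 2 NRF1 matches on opposite strands that overlap from -162 to -153, and another from -117 to -109, counted from the start. Atp5g3 has the ERR match from -52 to -44, written here as its reverse complement. Cox7a1 holds 4 CG dinucleotides and Cox8b 1, while Cox7a2 holds 14 and Cox8a 11, and none of these 4 stretches has a match to the 4 motifs; the ETS matches of Cox8a lie across and after the start. The stretches are chr7:30183921-30184170 (plus strand, Cox7a1), chr9:79759854-79760103 (minus, Cox7a2), chr7:140900447-140900696 (minus, Cox8b), chr19:7217617-7217866 (minus, Cox8a), chr5:115348959-115349208 (minus, Cox6a1) and chr2:73911327-73911576 (minus, Atp5g3).
Cox7a1: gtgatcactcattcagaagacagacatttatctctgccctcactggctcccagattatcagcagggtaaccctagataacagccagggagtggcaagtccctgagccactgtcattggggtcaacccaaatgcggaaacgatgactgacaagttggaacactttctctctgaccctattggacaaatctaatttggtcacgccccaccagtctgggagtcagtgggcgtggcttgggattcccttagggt
Cox7a2: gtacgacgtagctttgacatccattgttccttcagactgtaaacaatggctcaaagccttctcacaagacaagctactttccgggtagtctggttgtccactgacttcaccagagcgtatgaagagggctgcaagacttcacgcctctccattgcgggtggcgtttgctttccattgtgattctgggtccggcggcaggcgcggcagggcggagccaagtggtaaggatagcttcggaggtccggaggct
Cox8b: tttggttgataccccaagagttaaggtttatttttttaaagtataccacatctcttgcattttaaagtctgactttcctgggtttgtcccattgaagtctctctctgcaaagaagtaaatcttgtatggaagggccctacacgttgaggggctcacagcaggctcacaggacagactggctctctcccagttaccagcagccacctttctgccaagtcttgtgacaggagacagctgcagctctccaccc
Cox8a: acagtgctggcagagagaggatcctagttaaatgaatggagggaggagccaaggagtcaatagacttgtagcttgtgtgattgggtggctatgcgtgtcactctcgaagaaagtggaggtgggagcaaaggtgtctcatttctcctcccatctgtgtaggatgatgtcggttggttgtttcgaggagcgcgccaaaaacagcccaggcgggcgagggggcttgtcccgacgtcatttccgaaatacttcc
Cox6a1: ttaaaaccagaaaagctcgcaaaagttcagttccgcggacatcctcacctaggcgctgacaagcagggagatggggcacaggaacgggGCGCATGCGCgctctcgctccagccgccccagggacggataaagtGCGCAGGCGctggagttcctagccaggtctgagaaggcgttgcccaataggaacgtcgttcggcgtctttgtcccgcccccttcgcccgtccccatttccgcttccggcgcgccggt
Atp5g3: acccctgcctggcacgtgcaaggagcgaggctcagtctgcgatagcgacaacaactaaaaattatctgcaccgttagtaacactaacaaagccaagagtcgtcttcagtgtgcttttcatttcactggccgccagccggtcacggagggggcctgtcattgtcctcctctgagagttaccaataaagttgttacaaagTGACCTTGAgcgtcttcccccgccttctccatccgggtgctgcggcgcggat

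Genes that act with these complexes were counted in lists drawn up with earlier results of these data known. Of 22 other assembly factors 17 fell, none rose and 5 did not pass, with a median of -0.68. The clearest were Fmc1 (-1.21 ± 0.08), an assembly factor of the ATP synthase head, Taco1 (-1.07 ± 0.09), which activates translation of the Cox1 protein, Tmem70 (-1.02 ± 0.09), which helps build the c ring, and Cmc2 (-0.81 ± 0.09). Those that did not pass, looked up after their values were seen, were Sco2, Coa4, Pet100, Pet117 and Cmc1. By library totals 13 of the 22 were called lower, with a median of -0.40. Of the 4 that then did not pass, also looked up after their values were seen, Surf1 was at -0.10, Coa3 at -0.09 and Coa6 at -0.15, and Coa5 turned to 0.04. All 6 tested genes for the stability and translation of mitochondrial messages fell, with a median of -0.71, led by Lrpprc at -1.06 ± 0.09; by library totals 4 did. Of 9 tested supercomplex and accessory genes 8 fell, with a median of -0.55, among them Ndufa4 (-1.09 ± 0.07), now counted as a subunit of complex IV; Ndufa4l2, also named after its value was seen, did not pass (0.04 ± 0.10). By library totals 6 of these 9 genes were called lower, Ndufa4l2 counted as higher (0.32), and Atpif1, an inhibitor of the ATP synthase, was at 0.01, against -0.28 by TMM, and did not pass. Of the 6 subunits of complexes III to V made from mitochondrial DNA 5 fell, with a median of -1.01, close to that of the nuclear subunits. mt-Co1, the catalytic core of complex IV, averaged 41350 ± 3295 CPM in Mst1-TG and 90850 ± 4249 CPM in WT (log2 fold change -1.14 ± 0.09, edgeR adjusted p = 4.6e-07). Named likewise, mt-Atp8 did not pass, at 58.9, 83.6, 80.2 and 84.6 CPM in Mst1-TG libraries, against 155, 154, 126 and 47.1 CPM in WT libraries, WT 4 being the lowest of all.

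Of 14 transcriptional regulators of respiratory genes 7 fell, none rose and 7 did not pass; by library totals 7 were called lower and 4 higher. By smallest p these were Perm1 (-1.15 ± 0.10), a muscle regulator, Esrra (-0.61 ± 0.07), the receptor ERR alpha, Tfb2m (-0.64 ± 0.07) and Tfam (-0.46 ± 0.07). Tfb2m and Tfam are factors that take part in the transcription of mitochondrial DNA. The following were picked after their values were seen. Ppargc1a, the coactivator PGC-1 alpha, had 56.2, 66.6, 40.4 and 52.4 CPM in Mst1-TG libraries, against 158, 192, 258 and 122 CPM in WT libraries (-1.76 ± 0.25, edgeR adjusted p = 0.00069). Of the factors whose motifs were searched, Esrra fell (above), while the other ERR genes, Esrrb (-0.29 ± 0.14) and Esrrg (-0.12 ± 0.10), did not pass. Nrf1 (0.09 ± 0.08), the GABP genes Gabpa (-0.15 ± 0.06) and Gabpb1 (0.04 ± 0.09), and Yy1 (-0.04 ± 0.07) did not pass either. By library totals Nrf1 (0.38), Gabpb1 (0.32) and Yy1 (0.25, turned in sign) were called higher, and Esrra was still called lower (-0.33). Gabpa (0.14, turned in sign), Esrrb (-0.003) and Esrrg (0.17, turned in sign) did not pass.

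Markers of cell types differed between the groups beside these results. Of 10 cardiomyocyte markers 7 fell and 3 did not pass, with log2 fold changes from -1.33 to 0.07 and a median of -0.63. Cardiomyocyte markers summed to 41550 to 52570 CPM in Mst1-TG and 60450 to 71070 CPM in WT. All 8 fibroblast markers rose, with sums of 6187 to 8613 CPM in Mst1-TG and 2580 to 3437 CPM in WT. Endothelial markers summed to 1777 to 2877 CPM in Mst1-TG and 2531 to 3163 CPM in WT (4 of 8 lower), smooth muscle and pericyte markers to 1320 to 1550 CPM in Mst1-TG and 1997 to 2290 CPM in WT (4 lower and 1 higher of 8), and macrophage markers to 370 to 504 CPM in Mst1-TG and 358 to 476 CPM in WT (1 of 8 lower). Lymphocyte markers (3 of 6 tested, 1 lower) summed to 2.15 to 4.57 CPM in Mst1-TG and 3.21 to 7.91 CPM in WT, and skeletal muscle markers (2 of 6 tested, 1 higher) to 3.54 to 5.19 CPM in Mst1-TG and 1.21 to 1.86 CPM in WT, with Myh4 at 0 in all 8 libraries. None of the 5 adipocyte markers had enough counts to be tested; they summed to 0 to 10.9 CPM in Mst1-TG and 0.571 to 5.75 CPM in WT, and all 5 were at 0 in Mst1-TG 2. Cox7a1 and Cox8b are also used in brown fat, whose marker Ucp1 had 4.91, 0, 0.652 and 0.167 CPM in Mst1-TG libraries, against 0, 0.155, 0.0476 and 0.0504 CPM in WT libraries. By library totals the counts differed: 5 cardiomyocyte markers were called lower and 1 higher, all 8 fibroblast markers higher, no endothelial marker either way, 2 smooth muscle and pericyte markers lower and 3 higher, and 3 macrophage markers higher and none lower. The 4 endothelial genes that had fallen, looked up afterwards, were then at -0.05 (Cdh5), -0.18 (Kdr), -0.07 (Tie1) and -0.10 (Flt1), and Myh11 of smooth muscle turned to 0.0035. The part of these shifts in the changes of the respiratory genes was not tested.

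Members were also compared by transcript length within each group. For the 20 members under 600 bases the median deviation from the group mean was -0.09, -0.04, -0.03 and 0.15 (log2) in Mst1-TG 1 to 4 and 0.08, 0.08, -0.05 and -0.09 in WT 1 to 4. For the 27 members of 1000 bases or more it was 0.06, 0.02, -0.14 and 0.07 in Mst1-TG 1 to 4 and 0.02, 0.04, -0.03 and -0.03 in WT 1 to 4. Short and long members deviated with the same sign in each WT library and with opposite signs in Mst1-TG 1 and Mst1-TG 2, a difference that was not tested. Subunits under 600 bases had a median log2 fold change of -0.83, and those of 1000 bases or more -1.04; over all genes the medians were -0.18 and 0.02. The part of transcript length in the fold changes was not tested.

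**Figure D5:**
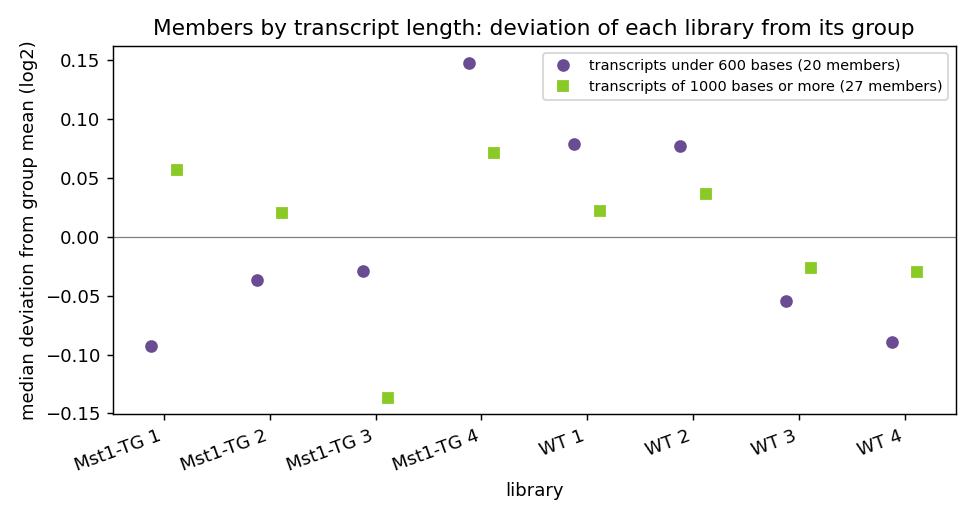
Median deviation (log2, vertical axis) of each library from its group mean, for members with transcripts under 600 bases (circles, 20 genes) and of 1000 bases or more (squares, 27 genes). Mst1-TG 4 is highest of its group for short transcripts at 0.15, and Mst1-TG 3 lowest for long ones at -0.14.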

How the data were processed

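The deposited table holds estimated counts per gene for 8 left ventricle libraries, 4 Mst1-TG and 4 WT. Per the submitters' processing notes, bcl2fastq 2.19.1.403 and kallisto 0.46.0 were used, and per the labels' protocols RNA was depleted of ribosomal RNA and made into directional libraries. The sources used here give no build, annotation or strand setting, and kallisto divides reads among similar transcripts, so counts of genes with near-identical copies or overlapping genes are uncertain. The estimated counts the authors deposited are whole numbers and unscaled.

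Genes were filtered with filterByExpr (minimum count 10, minimum total 15), which kept 15314 genes and set aside 40071. They were scaled by TMM and compared with the quasi-likelihood F test of edgeR 4.0.16 in R 4.3.3, with Benjamini-Hochberg adjustment over all genes tested and a threshold of 0.05. The biological coefficient of variation was 11.4%, and no libraries of a group agreed within counting noise (their chi-square over its degrees of freedom was 7.77 to 23.6). SE is the log2 fold change over the root of F. The procedure was tested on simulated data in which a small share of genes changed, up or down at random. That simulation did not cover a shift in scaling between the groups like the one in these data. Isoform ratios are log2 ratios of counts plus 0.5, compared by a two-sided exact permutation test. Transcript lengths and gene positions are from GENCODE M21 (GRCm38), which holds 67 of the 70 member identifiers with their version, and promoters are from RefSeq.

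Members and gene lists were chosen with earlier results of these data known. Values per library are given for members of isoform pairs, for the 2 lowest and 2 highest log2 fold changes of each class (complex II, complex III with cytochrome c, complex IV subunits, complex V subunits, and all assembly factors as 1 class) and for members that rose or did not pass, and for some others picked after their values were seen. Of other lists, up to 4 genes by smallest p are named unless said otherwise. The alternatives were DESeq2 1.42.0, voom in limma 3.58.1, 3 other scalings, no filter, a replicate block, summed identifiers, another pseudocount for the ratios and leaving out each library.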

Additional observations from a re-analysis of the deposited data

Results flagged for a closer look

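In the WT group, Cox7a2 stood at 235.0 CPM in library WT 1, below 243, 243 and 242 CPM in WT 2 to 4. The gap to the nearest library took up 0.876 of the group's range, above Dixon's 95% limit for 4 samples. The whole WT range is narrow, and all 4 WT libraries lie far above the highest Mst1-TG library (148 CPM). Of 74 groups of 4 values examined, 1 was singled out in this way, and chance does so in about 1 of 20 groups.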

How the results depend on the processing

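Of the 65 tested members, 49 kept their call and their sign under every alternative, 13 lost or gained a call in at least 1, and 3 others changed sign only. The count of members called lower was 60 under each alternative except library totals (49, with 11 calls lost and Uqcc3 gained as higher) and the replicate block (59). Leaving out any 1 library lost no call of the 61 members called. Scaling by library totals, which raises all Mst1-TG values, gave 1592 genes lower and 7409 higher, with 2 members called higher, and Cox4i2 and Cox8a changed sign to 0.049 and 0.13. Cox6b2, which did not pass in any fit, was -0.013 with limma-voom and -0.25 to 0.20 when libraries were left out, and Uqcc3 was -0.033 to 0.11. Same-numbered libraries of the 2 groups did not deviate together (correlations -0.174, 0.0674, 0.0292 and -0.0193), so the numbers are not taken as pairs. With the replicate block Atp5k alone lost its call (-0.83, edgeR adjusted p = 0.058). Taken as pairs under that block, the isoform ratios gave differences of 0.84, 1.09, 0.72, 0.94, 1.30, 1.18, 0.63 and 0.14, each with an exact p of 0.125, the smallest that 4 pairs allow. With 1 library left out, exact p-values of 3 ratios were 0.0286 or 0.0571, and the differences were 0.48 to 0.84 for Cox6b2/Cox6b1, 0.52 to 0.74 for Atp5g2/Atp5g1 and 0.10 to 0.17 for Atp5g3/Atp5g1. Exact p-values of so few libraries can take only widely spaced values, and the ratios of the 2 groups still did not overlap. The cause of the other changes in this section was not tested. Genes near 1 CPM, such as Cox6b2, are limited by depth.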
